A study of Homo sapiens with 6 samples.

Results

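LaminB1, the B-type lamin that lines the inner face of the nuclear envelope, was mapped by CUT&RUN in the human colorectal carcinoma line HCT116, and the called LaminB1 regions of chromosome 8 are described here. CUT&RUN releases chromatin next to a bound antibody, so sequence rich in LaminB1 reads lies near the lamina. The members were all rows on chromosome 8 in the 4 deposited region lists, 2361 of 49022 regions. The double loss lists held 545 and 543 of these and the control lists held 556 and 717. In the double loss group, cells were TOP2B -/- with TOP2A fused to a degron (mAID), and 500 uM auxin was given for 8 h to degrade TOP2A. The control group was the TOP2A mAID line with TOP2B intact and no auxin. Palbociclib at 2 uM for 28 h arrested both in G1. LaminB1 libraries numbered 2 per group, beside 1 IgG library per group, and the groups differ in genotype, in auxin and in control library, which cannot be told apart. Nothing in the labels says that replicates were separate cultures, so p-values measure only the spread between these libraries, which may be technical.

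Lamina-associated domains are long stretches of chromatin that touch the nuclear lamina. They are known to be poor in genes and rich in genes that are silent in the cell type studied, and many hold long neural or tissue-specific genes. Type II topoisomerases pass a DNA duplex through a break in another and are known to act in untangling replicated DNA and in chromosome condensation.

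The lists hold reads inside regions only, so total library depth is unknown. On chromosome 8 the regions held 1064691 and 1071078 LaminB1 reads in the double loss lists and 924946 and 941846 in the control lists. Matching control library reads numbered 754051 and 751697 in the double loss lists and 542965 and 525058 in the control lists. Where edges matched between lists of 1 group, control library counts were equal for 6 of 6 regions in the double loss group and 5 of 5 in the control group, so each group had 1 set of control reads. None of the 13 matches between a list of each group had equal counts, and a region can enter more than 1 such match. The spread between lists of 1 group thus holds no variation between control libraries, while the difference between groups may. No p-value here covers that part. Coordinates are in hg38 and counted from 1.

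Chromosome 8 was the most covered chromosome per base, and its coverage was uneven. The median LaminB1 over control ratio of its regions was lower than on the other chromosomes in every list, as given with the folds. Regions covered 45.7% and 45.7% of it in the double loss lists, against 43.4% and 41.7% in the control lists. The other chromosomes averaged 18.8% and 19.3% in the double loss lists and 18.4% and 16.9% in the control lists. Chromosome 8 makes up 4.79% of the length of chromosomes 1 to 22 and X, yet held 10.9%, 10.7%, 10.6% and 11.0% of all covered sequence in double loss 1, double loss 2, control 1 and control 2. The groups did not overlap in the chromosome 8 share, which averaged 45.7% ± 0.0029 in the double loss group and 42.5% ± 1.17 in the control group (SD, n = 2 each). The difference of 3.16 points had an exact permutation p of 0.33, two-sided, the smallest that 2 against 2 libraries allow in this and every permutation test here. The excess of chromosome 8 over the other chromosomes was 26.6 ± 0.3004 points in the double loss group and 24.9 ± 0.123 in the control group (SD, n = 2 each; exact permutation p = 0.33).

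The short arm was sparsely covered and the outer long arm was dense. The arms were divided at 44954000, the middle of the longest stretch with neither a protein-coding gene nor a region. The short arm was 13.1% and 13.7% covered in the double loss lists, against 11.4% and 9.96% in the control lists. The long arm was 60.3% and 60.1% covered in the double loss lists, against 57.7% and 56.0% in the control lists. Both arms were therefore more covered in each double loss list than in each control list, by 2.71 points on the short arm and 3.36 points on the long arm. The long arm exceeded the short arm by 46.8 ± 0.529 points in the double loss group and 46.2 ± 0.201 points in the control group, a difference of 0.657 points (SD, n = 2 each; exact permutation p = 0.33).

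**Figure D1:**
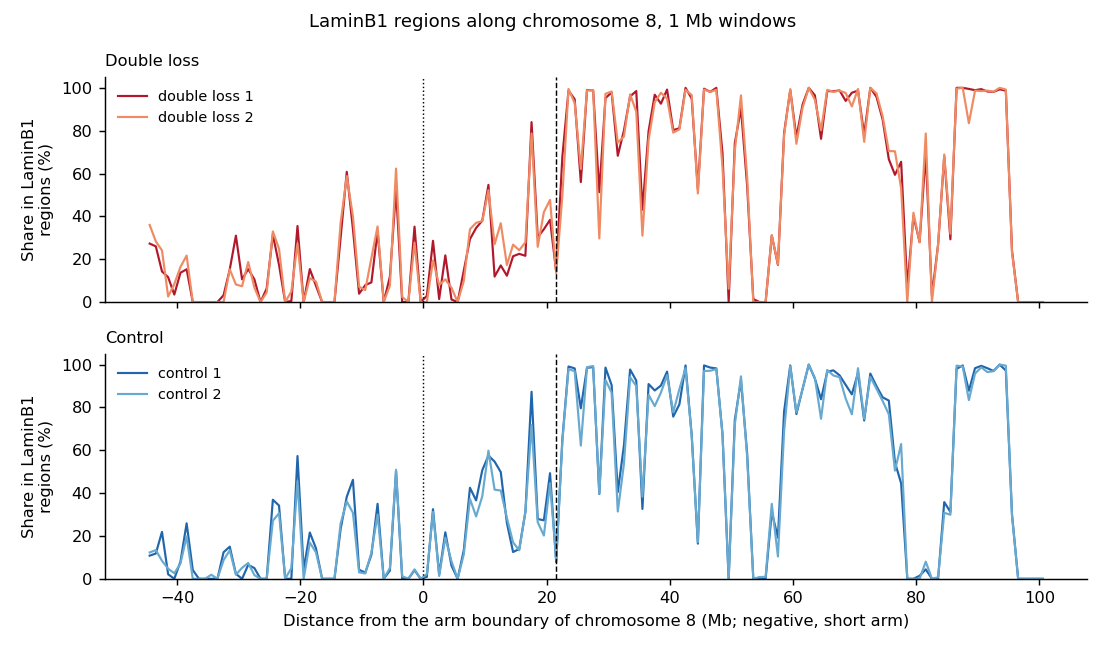
Share of each 1 Mb window inside LaminB1 regions (y axis, %) against distance from the arm boundary (x axis, Mb), with both double loss libraries in the upper panel and both control libraries in the lower panel. The dotted line marks the arm boundary and the dashed line the last region before the step in control reads; the median window on its left is 13.0%, 10.9%, 11.0% and 8.55% covered in double loss 1, double loss 2, control 1 and control 2, with single windows of up to 84.0%, 78.7%, 87.3% and 71.7%, and the median window on its right is 81.1%, 80.6%, 83.8% and 77.7% covered.

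The long arm itself held a sharp change about 21.4 Mb from the arm boundary. Proximal of it, from 44954001 to 66403000, regions covered 24.9% and 27.2% in the double loss lists, against 30.4% and 27.2% in the control lists. Distal of it, from 66403001 to the last gene's end at 145056030, they covered 70.0% and 69.1% in the double loss lists, against 65.2% and 63.8% in the control lists. The proximal segment overlapped between groups and averaged 2.70 points lower in the double loss group (exact permutation p = 0.67). The distal segment did not overlap, with a difference of 5.02 points (exact permutation p = 0.33). The contrast between distal and proximal segments was 45.0 and 41.9 points in the double loss lists, against 34.8 and 36.7 points in the control lists (exact permutation p = 0.33). Taken whole, all 22 other chromosomes had a lower share than the distal segment in every list, but segments of them were not measured. The highest of them was chromosome 3 in the double loss lists (30.3% and 30.5%) and chromosome 20 in the control lists (35.6% and 33.5%).

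Much of the long arm difference came from 1 interval. The 8 Mb from 123 to 131 Mb were 34.0% and 34.5% covered in the double loss lists, against 9.10% and 8.68% in the control lists. Without that interval, chosen after its values were seen, the long arm difference was 1.46 points in place of 3.36 (exact permutation p = 0.33).

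Region widths followed the same segments. Median width on the short arm was 23 and 26 kb after double loss, against 26 and 19 kb in the controls. The proximal long arm had medians of 25 and 26 kb after double loss, against 26 and 21 kb in the controls. The distal long arm had medians of 194.5 and 197.5 kb after double loss, against 87 and 61 kb in the controls. The groups overlapped on the short arm and on the proximal long arm and did not overlap on the distal long arm (exact permutation p = 0.33 there). The distal long arm was also divided into fewer pieces after double loss, with 170 and 166 regions against 219 and 297 in the control lists. Of the gaps between neighbouring distal regions, 107 and 104 were at most 10 kb in the double loss lists, against 138 and 195 in the control lists. As shares of all distal gaps these were similar, at 62.9% and 62.7% in the double loss lists and 63.0% and 65.7% in the control lists. When gaps of up to 10 kb were bridged, 62.5 distal regions remained on average in the double loss lists and 91.5 in the control lists. All regions of at least 500 kb lay on the distal long arm: 35 and 37 in the double loss lists, against 33 and 25 in the control lists. They held 60.8% and 60.4% of distal region length in the double loss lists, against 61.1% and 46.4% in the control lists. The groups overlapped in that share.

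**Figure D2:**
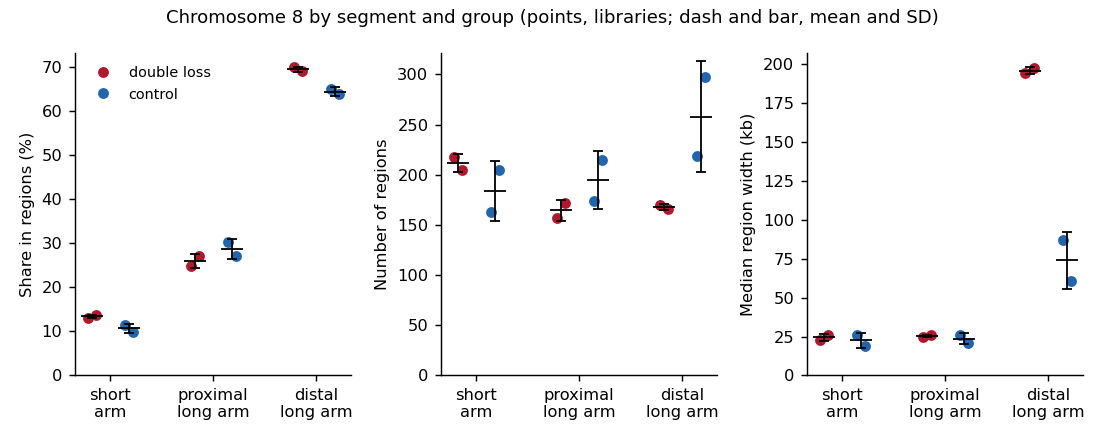
Share inside regions (%), number of regions and median region width (kb) in each segment of chromosome 8; points are libraries, with double loss left of control, and dashes with bars are means and SD (n = 2). The distal long arm has the highest share and the widest regions in both groups, and its widths in the double loss group, 194.5 and 197.5 kb, lie above those in the control group.

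**Figure D3:**
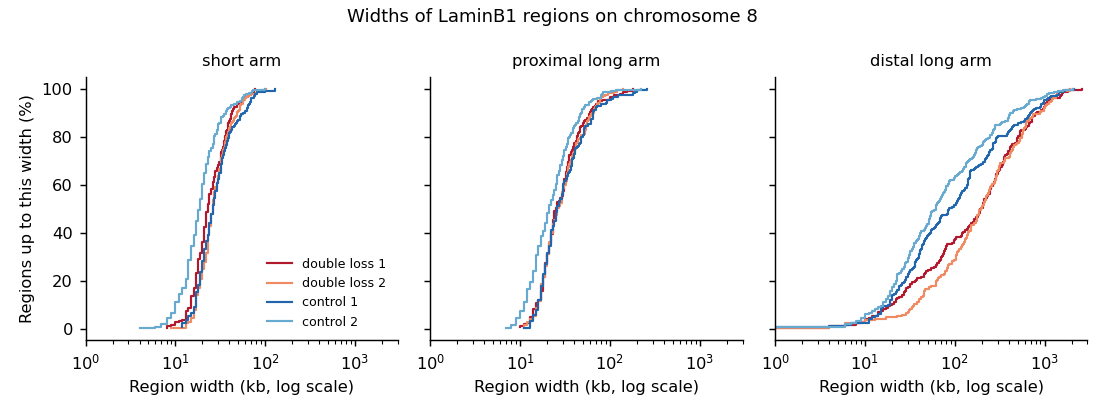
Cumulative share of regions (y axis, %) up to each width (x axis, kb, log scale) in the 3 segments, 1 line per library. Lines of the 4 libraries lie close together on the short arm and the proximal long arm, and on the distal long arm both double loss lines run to the right of both control lines over most widths.

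The longest regions of the chromosome were all on the distal arm. The longest region of double loss 1 ran from 130707001 to 133330000, 2623 kb with 52884 LaminB1 and 33490 control library reads. It held 12 protein-coding genes, among them TG, which encodes thyroglobulin, ADCY8, an adenylyl cyclase of the brain, and KCNQ3, a potassium channel subunit that limits neuronal firing. The longest region of double loss 2 ran from 137563001 to 139460000 (1897 kb). The longest control regions were 137565001 to 139694000 in control 1 (2129 kb) and 137685001 to 139754000 in control 2 (2069 kb), over FAM135B, COL22A1, a collagen gene, and KCNK9, a potassium leak channel. The longest stretches covered in all 4 lists were 118120001 to 119718000 (1598 kb), which held SAMD12, ENPP2 and TNFRSF11B, and 106863001 to 108182000 (1319 kb), which held ANGPT1 and RSPO2. TNFRSF11B encodes osteoprotegerin, a decoy receptor that restrains bone resorption, ENPP2 encodes autotaxin, ANGPT1 a vessel-stabilising ligand and RSPO2 a secreted enhancer of WNT signalling. Each of these genes was 100% covered in all 4 lists. The region with the highest LaminB1 over control ratio in both double loss lists, and the second highest in both control lists, was 1 kb wide, from 85811001 to 85812000. It had 96 and 102 LaminB1 reads with 38 and 38 control reads in the double loss lists, against 100 and 105 with 31 and 31 in the control lists.

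The longest sequence outside regions in all 4 lists was at the end of the long arm. It was counted from 140305001 to the last gene's end at 145056030, with 104 protein-coding genes in 4.75 Mb. The next were 27182001 to 31201000 (4.02 Mb, 35 genes) and 7399001 to 10470000 (3.07 Mb, 42 genes), both on the short arm. The short arm held 6.50 protein-coding genes per Mb, the proximal long arm 2.94 and the distal long arm 4.58. The most covered segment was therefore not the one with the fewest genes per Mb.

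Reads inside regions showed the same division, in the control libraries as well as in LaminB1. LaminB1 reads per kb on the distal arm were 16.9 and 17.1 in the double loss lists and 15.5 and 16.3 in the control lists. On the short arm they were 11.8 and 11.8 in the double loss lists and 10.9 and 11.6 in the control lists. Control library reads per kb on the distal arm were 11.996 and 11.998 in the double loss lists and 9.13 and 9.14 in the control lists. On the short arm these were 8.39 and 8.45 in the double loss lists and 6.44 and 6.47 in the control lists. Values per kb were compared only within a library, since total depth is unknown.

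To set segments side by side, densities in stretches called in all 4 lists were divided by the median of 18 other chromosomes. Control library reads on the distal arm were then 1.41 and 1.42 in the double loss lists and 1.40 and 1.40 in the control lists. On the proximal arm they were 0.980 and 0.981 in the double loss lists and 0.965 and 0.966 in the control lists. On the short arm they were 1.01 and 1.01 in the double loss lists and 0.986 and 0.984 in the control lists. LaminB1 reads on the distal arm were 1.28 and 1.28 in the double loss lists and 1.27 and 1.26 in the control lists, and were below 1 in the other 2 segments of every library. LaminB1 and control library reads were thus both denser on the distal arm than on the short or proximal arm, in both groups.

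The change in control library density was abrupt. The last region before it ended at 66403000 and the first after it began at 67263001. The 10 windows of 1 Mb with at least 50 kb in regions on its near side had medians of 0.966 and 0.968 in the double loss lists and 0.965 and 0.957 in the control lists. The 10 on its far side had medians of 1.41 and 1.42 in the double loss lists and 1.39 and 1.39 in the control lists. The position was found from these values, so the contrast is a description. HCT116 is known to carry a translocation that joins distal long arm sequence of chromosome 8 to chromosome 16. Copy number was not measured here, and the part of copy number or of control read density in the covered share and the widths of the distal arm was not tested.

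**Figure D4:**
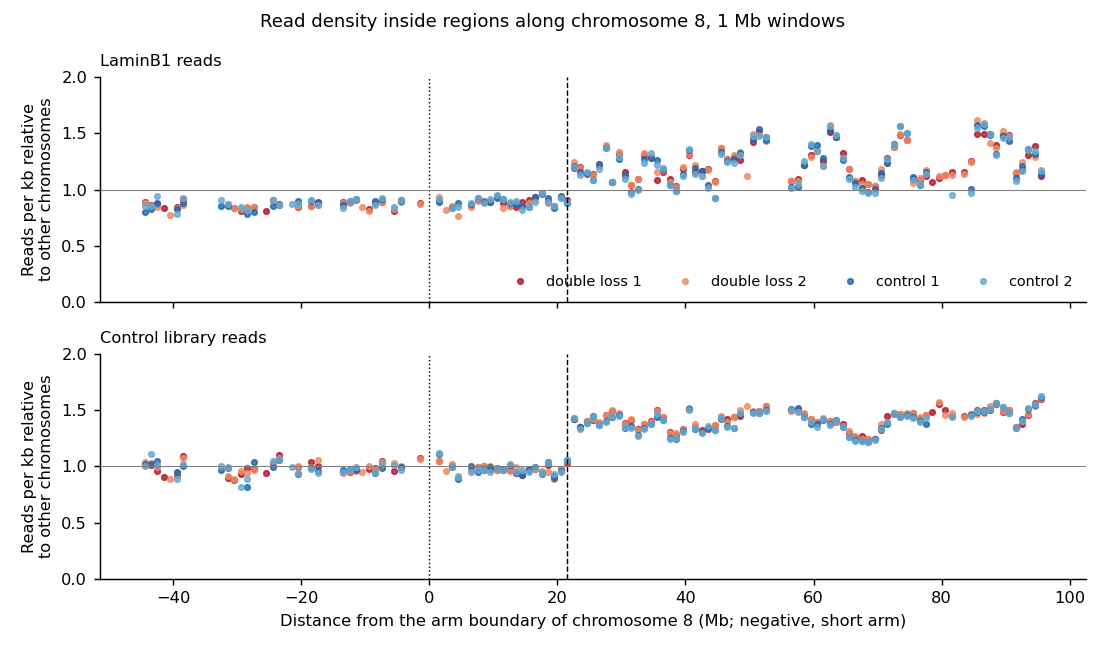
Reads per kb inside regions, relative to the median of the other chromosomes (y axis), in 1 Mb windows against distance from the arm boundary (x axis, Mb), for LaminB1 (upper panel) and the control library (lower panel); colours are libraries. Control library densities step up at the dashed line in all 4 libraries, with medians near 0.96 before it and 1.39 to 1.42 after it.

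The authors' log2 fold, log2 of LaminB1 over control library reads minus a constant per list, was lower on the distal arm than on the proximal arm in all 4 lists. Pooled over stretches called in all 4 lists, it was 0.45 and 0.46 distally in the double loss lists and 0.51 and 0.54 in the control lists. On the proximal arm it was 0.54 and 0.54 in the double loss lists and 0.62 and 0.65 in the control lists. On the short arm it was 0.45 and 0.43 in the double loss lists and 0.52 and 0.58 in the control lists. Against the short arm, the pooled distal fold was higher in both double loss lists and lower in both control lists. The pooled stretches of the short arm summed to only 1.10 Mb. By median fold per region, the distal arm was below the short arm in all 4 lists. In the double loss lists these medians were 0.347 and 0.326 distally, against 0.446 and 0.399 on the short arm. The median fold per region on all of chromosome 8 was 0.419 and 0.406 in the double loss lists and 0.439 and 0.472 in the control lists. On the other chromosomes it was 0.517 and 0.507 in the double loss lists and 0.554 and 0.608 in the control lists. Folds were compared only within a list, because the control reads differ between groups.

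The difference between groups changed with a threshold on the fold. When each list was restricted to its upper 50% by fold, chromosome 8 was 13.7% covered in the double loss group and 16.6% in the control group, a difference of -2.89 points (exact permutation p = 0.33), against 3.16 points with all regions. With equal numbers of regions per list the chromosome 8 share was 36.1% ± 0.275 in the double loss group and 35.4% ± 11.3 in the control group (SD, n = 2 each), where control 1 was at 43.4% and control 2 at 27.4%. That difference was 0.771 points, and the groups overlapped (exact permutation p = 1). With the same lists the excess of chromosome 8 over the other chromosomes was 0.184 points lower in the double loss group (exact permutation p = 1), against 1.77 points higher with all regions. In both groups the distal arm stayed the most covered segment with the upper 50%, at 20.2% in the double loss group and 24.3% in the control group.

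Overlap between lists was high distally and low elsewhere. The base-pair Jaccard index, shared over combined covered sequence, was 0.927 between the double loss lists and 0.909 between the control lists on the distal arm. The 4 pairs across groups gave 0.853 to 0.877 there. On the short arm it was 0.351 between the double loss lists and 0.378 between the control lists, and 0.272 to 0.310 across groups. Lists of 1 group share control reads, whose part in this was not tested. The index and the shared share also rise with covered share alone, which differs between segments, and that part was not tested either. Sequence in all 4 lists summed to 49.4 Mb, 62.1% of the 79.6 Mb in any list, and 46.3 Mb of it was distal. All 4 lists shared 79.8% of the distal sequence in any list and 9.70% on the short arm. Calls of the short arm rested more on single lists, since 45.4% of its called sequence was in 1 list only, against 4.28% distally.

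Gained sequence (called in double loss 1 and 2, absent from control 1 and 2) summed to 4.57 Mb in 254 stretches. Lost sequence (called in control 1 and 2, absent from double loss 1 and 2) summed to 1.81 Mb in 198. Gained sequence was 1.01 Mb on the short arm, 0.485 Mb on the proximal arm and 3.07 Mb on the distal arm. Lost sequence was 0.605, 0.737 and 0.472 Mb in the same order, so the proximal arm had more lost than gained sequence. All 7 gained stretches of at least 100 kb were distal, and 179 of the 254 gained stretches touched a control region. The longest lost stretch was 76 kb, from 81195001 to 81271000. With any 1 of the 4 libraries left out, gained sequence was 6.66 to 7.90 Mb and lost sequence 3.55 to 4.31 Mb, since fewer lists then had to match.

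The longest gained stretch ran from 124598001 to 124966000 (368 kb) over part of MTSS1, which encodes a membrane-bending actin regulator, and lay 1020 kb from the nearest control region. Double loss LaminB1 reads were 14.9 and 15.2 per kb there, and double loss control library reads were 13.2 and 13.4 per kb. Gained distal stretches as a whole had 15.2 and 15.2 LaminB1 and 12.1 and 12.2 control library reads per kb in these lists. The LaminB1 over control ratio of the longest gained stretch was thus below theirs in both double loss lists. Of the 4.57 Mb gained, 1.70 Mb, or 37.2%, lay between 123 and 131 Mb, where no sequence was lost. Gained distal stretches had folds of 0.26 and 0.24, below the 0.45 and 0.46 of distal stretches shared by all 4 lists. MYC, the transcription factor gene in that interval, was at 0% in all 4 lists.

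**Figure D5:**
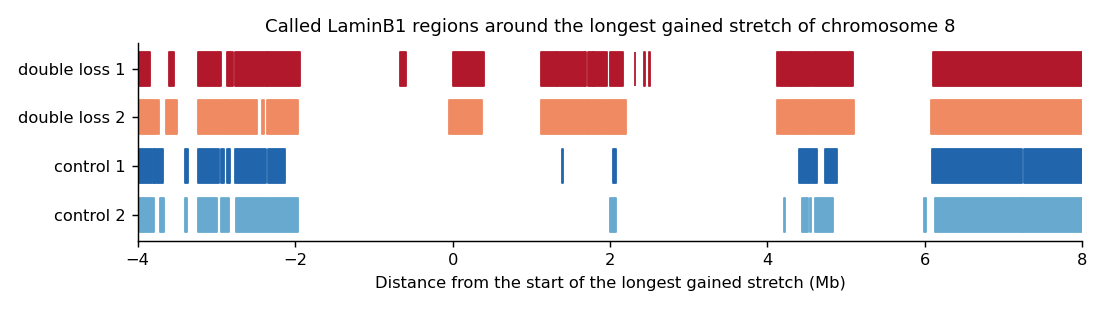
Called LaminB1 regions (bars) in the 4 libraries against distance from the start of the longest gained stretch (x axis, Mb), with the double loss libraries above the control libraries. Bars from about 0 to 0.37 Mb and from 1.1 to 1.9 Mb appear in both double loss libraries and are missing or short in the control libraries; long bars from 6.1 Mb are in all 4.

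Coverage was then compared in bins of 100 kb across the genome by limma on the arcsine square root of the covered share. Of the 964 bins of chromosome 8 tested, 22 rose and 1 fell after double loss at an adjusted p under 0.05 (Benjamini-Hochberg over all bins). That is 2.28% and 0.104% of its bins, against 0.642% and 0.296% over the whole genome, and the share that fell rests on 1 bin. All 23 bins were on the distal arm. In each of them 1 group was at 0% or at 100% in both of its lists, so that group had no spread. In 9 of the 22 the gap between groups was at least 73 points, with both control lists at 0%, and all 9 lay between 124.6 and 129.7 Mb. The other 13 were at 100% in both double loss lists, with control means of 90% to 99%. Bins in which both double loss lists lay above both control lists numbered 185 (19.2%, against 24.5% genome-wide), and those below numbered 87 (9.02%, against 15.6%). At an unadjusted p under 0.05, 114 bins were higher (11.8%, against 12.1% genome-wide) and 30 lower (3.11%, against 6.42%). Groups stood at least 50 points apart in 33 bins that were higher (3.42%, against 1.59%) and 5 that were lower (0.519%, against 1.25%), and 19 of the 33 lay between 123 and 131 Mb. The proximal arm alone had more bins below than above, 37 against 19 of 143. No bin of the proximal or short arm passed. The bin from 81200001 to 81300000 was 14% covered in both double loss lists, against 100% and 90% in the control lists, and did not pass (adjusted p by limma 0.109). On the short arm, the bin from 24800001 to 24900000 was at 1% and 0% in the double loss lists, against 67% and 76% in the control lists, and did not pass (adjusted p by limma 0.0611).

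These bin calls depended on the test's settings. By limma, 0 bins rose with untransformed shares, with 200 kb bins, with equal numbers of regions and with the upper 50% of regions, while 104, 79, 38 and 17 bins were higher at an unadjusted p under 0.05 in the same order. With any 1 of the 4 libraries left out, 50 to 91 bins rose and 0 to 29 fell, and 0 fell without control 2.

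Protein-coding genes were covered mostly on the distal arm. Of the 715 genes of the chromosome, 223 had some sequence inside a region in any list and 492 had none. At least 50% of the gene body was covered in all 4 lists for 109 genes, of which 104 were distal, and 54 genes were 100% covered in all 4. Median length was 116 kb among the 109 genes and 19.7 kb among the 492 uncovered. Gene bodies as a whole were 39.5% and 38.6% covered in the double loss lists and 37.4% and 36.5% in the control lists. Sequence between genes was 49.99% and 50.6% covered in the double loss lists and 47.5% and 45.3% in the control lists. The distal gap between intergenic and genic sequence was wider in both double loss lists, at 75.3% and 74.4% against 61.8% and 60.8%, than in the control lists, at 68.2% and 67.04% against 60.5% and 58.9%.

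Of the 223 genes tested, 1 rose and 3 fell by the same fit (adjusted over 3058 genes), which gave 1.67% rising and 0.981% falling over all chromosomes. NEFL, the light neurofilament subunit of neurons, was at 0% in both double loss lists and at 100% in both control lists (adjusted p by limma 0.0142). PPDPFL was at 0% in both double loss lists, against 99.6% and 100% in the control lists (adjusted p by limma 0.0171). A 75 bp gene entry in EBAG9, EBAG9UORF, was likewise at 0% in both double loss lists and 100% in both control lists. PHF20L1 was at 100% in both double loss lists, against 94.6% and 93.7% in the control lists (adjusted p by limma 0.0142), a difference of 5.87 points. That difference was 0 once gaps of up to 10 kb were bridged, and its adjusted p by limma was 0.0662 without double loss 1 and 0.0696 without double loss 2. None of these 4 calls held when 10 kb were added on each side of the genes, and NEFL and EBAG9UORF lost theirs with equal numbers of regions (adjusted p by limma 0.600 for each). With any 1 of the 4 libraries left out, 6 to 23 genes rose and 10 to 18 fell.

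At an unadjusted p under 0.05, 12 genes were higher (5.38%, against 9.58% of all genes tested) and 9 lower (4.04%, against 5.98%). Both double loss lists lay above both control lists for 32 genes (14.3%, against 21.5%) and below them for 21 (9.42%, against 13.9%). A gap of at least 50 points was found for 2 genes that were higher (0.897%, against 2.16%) and 5 that were lower (2.24%, against 1.96%). Larger differences that did not pass in the same fit occurred on both sides. MTSS1 was 73.4% and 100% covered in the double loss lists and at 0% in both control lists (adjusted p by limma 0.175). CHMP4C, an ESCRT-III subunit of membrane scission, was at 83.2% and 100% in the double loss lists and at 0% in both control lists. EXT1, a heparan sulfate polymerase, was at 87.8% and 94.4% in the double loss lists, against 54.9% and 46.5% in the control lists. TDRP was at 66.0% and 100% in the double loss lists, against 10.8% and 19.8% in the control lists. On the lower side, FABP5, an epidermal fatty acid-binding protein, was at 0% in both double loss lists, against 100% and 89.0% in the control lists (adjusted p by limma 0.0875). NBN, a subunit of the double-strand break sensor with MRE11, was at 0% in both double loss lists, against 39.0% and 100% in the control lists. HEY1, a Notch target repressor, was at 0% in both double loss lists, against 53.0% and 100% in the control lists. MTBP was at 35.3% and 18.7% in the double loss lists, against 94.9% and 77.5% in the control lists.

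Gene groups differed by how much of them lay in regions, and few members moved. Among 43 long neural and adhesion genes, 36 were covered in some list and 20 at 50% or more in all 4. In 10 of the 36 covered genes both double loss lists lay above both control lists, and in 3 both lay below, with a median difference of 0 points. Among all 3058 genes tested, 656 (21.5%) lay above and 424 (13.9%) below, with a median difference of 0.77 points. KCNB2, a neuronal potassium channel, was 98.0% and 98.5% covered in the double loss lists and 98.3% in both control lists. CSMD1 of the short arm was at 9.23% and 5.34% in the double loss lists, against 1.02% and 3.79% in the control lists. CSMD3 of the distal arm was at 96.9% and 99.3% in the double loss lists, against 92.4% and 86.1% in the control lists. NRG1, a growth factor gene of the ERBB pathway, was at 52.1% and 46.4% in the double loss lists, against 25.8% and 25.4% in the control lists (adjusted p by limma 0.244). NEFL was the only member of 23 neuronal channel and marker genes that passed. NEFM of the same group was at 98.3% and 0% in the double loss lists and at 0% in both control lists.

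Among 28 extracellular matrix and secreted regulators, 17 were covered in some list, and 12 at 50% or more in all 4. In 4 of the 17 both double loss lists lay above both control lists, and in none below, against 21.5% and 13.9% of all genes tested. Their names include HAS2, a hyaluronan synthase, at 100% in both double loss lists, against 78.0% and 0% in the control lists. Among 31 developmental transcription factor genes, 15 were covered and 8 at 50% or more in all 4. In 2 of the 15 the double loss lists lay above and in 1 below, against the same shares of all genes tested. All 5 fatty acid-binding protein genes were covered, 4 of them at 50% or more in all 4 lists, and FABP5 was the exception. Of 26 defensin genes, 1 was covered in a list, and of 13 LY6 family genes none was. Of 39 ribosomal, translation and housekeeping genes, 9 were covered in some list and 1 at 50% or more in all 4. None of the 9 covered ribosomal, translation and housekeeping genes or the 15 covered developmental genes passed the test. Only covered genes were tested, so no LY6 gene and 1 defensin gene entered it.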

How the data were processed

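Reads of the 4 LaminB1 CUT&RUN libraries were processed by the authors with Bowtie2 2.3.4.3, hg38 and Picard, per the submitters' processing notes. How regions were called is not given in the sources used here. Regions of the 2 IgG libraries were not analysed here. Each list was deposited per library on a grid of 1 kb. Per the file headers, the deposited columns are raw counts of LaminB1 and of control library reads, p-values with and without adjustment, a log2 fold and a score. The deposited score is 100 times the deposited log2 fold. The log2 fold equals log2 of the count ratio minus 1 constant per list (0.065 and 0.078 in the double loss lists, 0.272 and 0.315 in the control lists), as tested on the values. No per-sample column was left unused, and 1 or 2 regions per list on other sequences were left out.

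Coverage was computed in 1 kb steps with Python 3.11.15, numpy 2.4.6 and pandas 2.3.3, and drawn with matplotlib 3.10.9. Positions of 19974 protein-coding genes came from RefSeq on GRCh38.p14, which shares its primary coordinates with hg38. Each chromosome was taken to end at its last RefSeq gene or region, whichever lay further out. Bins of 100 kb at least 5% covered in 1 library, and genes covered in any, were tested with limma 3.58.1 in R 4.3.3. The fit used the arcsine square root scale with trended variance, over all chromosomes, at a threshold of 0.05. It was also run on simulated shares, with changes added only to bins of intermediate share. That run does not cover the called bins of chromosome 8, in which 1 group had no spread. Exact permutation tests, two-sided, were used for single values.

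Named genes were those that passed, the 8 largest gaps per direction among genes of at least 20 kb (at most 1 per 500 kb), the 3 largest differences in each list, and genes in the 2 longest stretches per arm; not all are printed. CSMD1, CSMD3, KCNB2, TG, ADCY8, KCNQ3 and MYC were named outside that rule. The members and lists were chosen with earlier results of these data known. The split of the long arm, the interval from 123 to 131 Mb and the fit without chromosome 20 were chosen after seeing the data. The other alternatives left out each replicate, used a replicate block, took the upper 50% of each list by fold or 10771 regions from each (the size of the shortest list), joined or dropped regions, and varied bin size, flanks, transformation and threshold.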

Additional observations from a re-analysis of the deposited data

How the results depend on the processing

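Values below are double loss minus control unless they are lengths or counts. Depth is known only inside regions, so it limits every comparison of calls. The upper 50% of regions by fold gave -2.89 points for chromosome 8, -0.363 for the short arm, -4.03 for the long arm, -3.66 for long minus short arm and -3.79 for chromosome 8 minus the others, with 0.574 Mb gained and 2.33 Mb lost. Equal numbers of regions gave 0.771 points for chromosome 8 and -0.184 points for chromosome 8 minus the others, with 2.23 Mb gained and 1.99 Mb lost. Leaving out regions under 10 kb gave 4.60 Mb gained and 1.79 Mb lost. Merging gave 4.57 and 1.94 Mb. The median width difference over all of chromosome 8 was 2.5 kb with all regions and -0.5 kb when merged. On the distal arm alone it was 122 kb with all regions and 163 kb when merged. Stretches of at least 10 kb summed to 3.97 Mb gained and 1.34 Mb lost. Reads per kb on chromosome 8 were also divided by those on the other chromosomes of the same list. For LaminB1 this ratio differed by 0.0264 with summed reads and by -0.0061 with the median density of regions. For control library reads it differed by 0.0460 and -0.0331 in the same order, so the sign changed in both. The proximal long arm alone gave -2.70 points. Gained sequence was 2.87 Mb without the interval from 123 to 131 Mb. The cause of these shifts was not tested, except that fewer regions or less sequence entered where regions, stretches or the interval were left out.

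Leaving out 1 library gave 6.66 to 7.90 Mb gained and 3.55 to 4.31 Mb lost, since fewer lists then had to agree. The median width difference over all of chromosome 8 ranged over -1 to 6 kb, and was -1 kb without control 2. It gave 50 to 91 bins higher, 0 to 29 lower, 6 to 23 genes higher and 10 to 18 lower; a lone library was assumed to vary like the other group. Higher and lower bins numbered 8 and 0 with any covered sequence, 0 and 0 at 200 kb, 43 and 8 at 50 kb, and 51 and 7 at an adjusted p under 0.1. They were 0 and 0 with equal numbers of regions (unadjusted p under 0.05 in 38 and 30), with untransformed shares (104 and 29) and with the upper 50% (17 and 44). Lower bins were 3 when merged and 2 without regions under 10 kb. Genes were 0 and 0 with 10 kb flanks (18 and 10 at an unadjusted p under 0.05) and 2 higher and 5 lower when merged; lower genes were 1 with equal numbers, 7 with the upper 50% and 6 at an adjusted p under 0.1.

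With the replicate number as a block, limma called 0 bins in either direction (unadjusted p under 0.05 in 96 and 21) and 0 genes (8 and 9). Replicates with 1 number did not deviate together (r = -0.0685 over 964 bins of chromosome 8), so the pairing is by number only.

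Some single genes changed direction, none past the threshold in either setting (in points). With 1 library left out, ADAMDEC1 ranged from -90.8 to 9.14, ADAM7 from -35.4 to 1.87, CA8 from -39.8 to 22.1 (12.8 without control 1), CA13 from -22.7 to 20.1 (18.8 without control 2) and CA2 from -19.99 to 17.1 (15.7 without control 1). With equal numbers, MRPS28 was at -25.2, CA13 at 48.7, ATP6V1C1 at -50 and HAS2 at -39.0. With the upper 50%, CA8 was at 17.0, SLC26A7 at -21.0 and EXT1 at -3.52.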
